A study of Rattus norvegicus with 31 samples.

Results

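Neuromedin U and neurotensin are encoded in the rat by Nmu and Nts, and their transcripts were followed here in each of 31 striatal arrays. The members were the probes that carry these 2 gene names, out of 13334 genes named on the Illumina RatRef-12 BeadChip. Each gene had 1 probe (ILMN_1366174 for Nmu and ILMN_1350873 for Nts), and each probe was detected above the negative controls on all 31 arrays.

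The striata came from male Sprague-Dawley rats whose age is not given in the sources used here. In the rats of 4 groups the left medial forebrain bundle had been injected with 6-OHDA (5 µl at 2 µg/µl), which destroys catecholamine neurons and so removes dopamine (DA) fibres from the striatum of that side. All of these rats had been tested for rotation with apomorphine and with methamphetamine (METH) before the last injection. They gave the DA-depleted side after METH (ML, 6 arrays) or saline (SL, 6 arrays) and the intact side after METH (MNL, 6 arrays) or saline (SNL, 5 arrays). Control rats had no 6-OHDA injection and received METH (MC, 4 arrays) or saline (SC, 4 arrays). In the lesioned rats METH was given at 2.5 mg/kg, and the tissue was taken 2 h after the injection. For the control rats the dose and the time are not stated separately. The labels number the striata, and these numbers name the replicates here. Labels of control striata also carry a letter whose meaning is not given in the sources used here. It is a for SC replicates 6, 8a and 15 and MC replicates 5 and 13, and b for SC replicate 16 and MC replicates 7 and 14. Its part in the values was not tested. The labels do not tie striata to rats. The p-values therefore measure only the spread between these striata, and the number of arrays limits their precision.

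Neuromedin U is a peptide named for its action on smooth muscle of the uterus, and it also acts in the brain on feeding and stress. It binds the G protein-coupled receptors Nmur1 and Nmur2. Neurotensin is a short brain and gut peptide that binds Ntsr1 and Ntsr2 and the sorting receptor sortilin (Sort1), and in the striatum it is made by medium spiny neurons and interacts with DA transmission. Both peptides are cut from larger precursors by prohormone convertases. Neurotensin is known to be degraded by peptidases such as neprilysin (Mme), thimet oligopeptidase (Thop1) and neurolysin (Nln).

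Nmu lies on chromosome 14 of assembly GRCr8 (chr14:32198789-32226397, 3 annotated transcripts), and Nts on chromosome 7 (chr7:39451484-39460888, 1 annotated transcript). The promoter windows of both genes in RefSeq (GRCr8) are shown because neuropeptide genes that respond to activity are often read through AP-1 sites and cyclic AMP response elements (CRE), and because AP-1 genes were measured in the same striata. The 250 bases before the annotated start are printed 5′ to 3′ on the strand of the gene, chr14:32198693-32198942 (+) for Nmu and chr7:39460889-39461138 (−) for Nts. The annotated span of Nmu begins inside its window, so distances for Nmu count from the start at the end of the window, which lies within that span. Capitals mark matches to the AP-1 site (TGACTCA) and to the CRE core (TGACG) on either strand.
Nmu: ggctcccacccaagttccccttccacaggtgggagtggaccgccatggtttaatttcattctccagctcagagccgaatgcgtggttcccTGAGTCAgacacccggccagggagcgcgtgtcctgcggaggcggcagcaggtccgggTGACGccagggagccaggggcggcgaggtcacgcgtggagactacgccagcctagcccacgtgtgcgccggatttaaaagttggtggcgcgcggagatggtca
Nts: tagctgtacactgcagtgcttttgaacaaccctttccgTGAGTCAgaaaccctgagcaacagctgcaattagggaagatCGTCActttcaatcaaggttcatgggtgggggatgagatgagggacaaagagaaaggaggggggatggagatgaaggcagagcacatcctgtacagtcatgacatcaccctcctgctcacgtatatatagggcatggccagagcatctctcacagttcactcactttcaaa
Both windows held 1 AP-1 match, read as TGAGTCA on the strand printed. It stood 160 to 154 bases upstream of the start in Nmu and 212 to 206 bases upstream in Nts. Of 33469 promoter windows of this length, 4.05% held an AP-1 match on either strand. Both windows also held 1 CRE core, 103 to 99 bases upstream in Nmu (TGACG) and 171 to 167 bases upstream in Nts (CGTCA), as did 18.2% of all windows, those with a full CRE included. In Nmu this CRE core lies within the annotated span of the gene, and the AP-1 match lies at the edge of that span. The full CRE (TGACGTCA, in 1.59% of windows), the TATA box letters TATAAA (12.9%) and the CCAAT box letters CCAAT (34.0%) were found in neither window. Only these exact letters were searched. The Nts window holds TGACATCA and TATATATA, near matches to the full CRE and the TATA box that were neither searched for nor marked. The searched motifs were read on both strands, and a match describes the letters only.

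**Figure D1:**
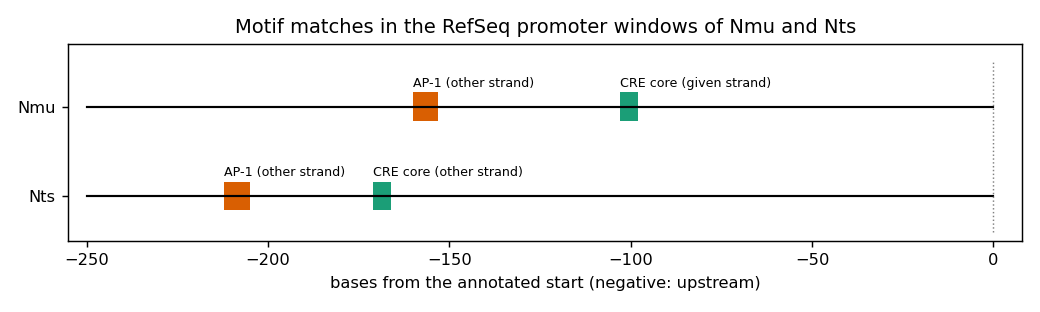
Positions of motif matches in the 250 bases before the annotated start of Nmu and Nts, with the distance from the start in bases on the x axis. The start of Nmu is the one at the end of its window, within the annotated span of the gene. Orange bars are AP-1 matches and green bars CRE core matches, and in both genes the AP-1 match lies farther upstream than the CRE core.

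In the arrays, signals of 2 columns did not stand beside their probe names. The signals of ML replicate 22 were moved by 4 rows one way and those of SL replicate 32 by 4 rows the other way, after which their correlation with the probe medians was 0.985 and 0.986, against 0.213 and 0.215 as deposited. Between 8042 and 9451 probes were detected per array (median 8635), and the 9732 probes that reached detection on 4 or more arrays entered the tests. Of 8 marker genes of medium spiny neurons, 7 had a named probe, and these were detected on every array. The DA neuron genes Th, Slc6a3 and Slc18a2, whose transcripts are made mainly in midbrain cell bodies, were detected on 0 arrays, so the lesion could not be checked from them. The summed intensity of 5 choroid plexus markers ran from 198 to 8733 in ML, 219 to 13140 in SL, 207 to 1026 in MNL, 206 to 6237 in SNL, 269 to 2480 in MC and 141 to 701 in SC. It was over 2000 on 6 arrays (ML replicates 10 and 30, SL replicates 4 and 12, SNL replicate 11 and MC replicate 7). The summed intensity of 4 hypothalamic genes, of which Hcrt was detected on 0 arrays, was highest in SL replicate 12 (1110) and MC replicate 5 (575), against 88.0 to 148 on the other arrays.

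Nmu was highest in the DA-depleted striatum, with or without METH, and far lower in all 4 other groups. Normalized log2 intensities of Nmu had a lowest value of 7.64, a median of 8.92 and a highest value of 9.42 in ML, and 7.98, 8.90 and 9.34 in SL. In MNL they were 5.79, 7.01 and 7.48. The 5 SNL striata had 6.42, 6.34, 5.94, 6.29 and 6.52. The MC striata had 6.46, 6.67, 6.89 and 6.76, and the SC striata had 5.45, 5.96, 6.78 and 6.87. The lowest striatum of the DA-depleted side, ML replicate 10, still lay above the highest of the other striata, MNL replicate 25b (7.48). In the intensities as deposited, before normalization, Nmu ran from 170 to 878 in ML and from 265 to 583 in SL. The other groups had 39.6 to 190 in MNL, 34.8 to 80.4 in SNL, 69.8 to 110 in MC and 29.1 to 85.5 in SC, so that on this scale 1 MNL striatum overlapped ML.

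Nts showed the same order of group means, with smaller gaps between the DA-depleted side and the other 4 groups. By medians, MC (8.65) lay above MNL (8.57) for Nts, whereas for Nmu it lay below (6.71 against 7.01). Its log2 intensities had a lowest value of 9.20, a median of 9.59 and a highest value of 10.65 in ML, and 8.88, 9.37 and 9.90 in SL. In MNL they were 8.13, 8.57 and 9.05. The SNL striata had 7.51, 7.75, 7.56, 8.01 and 8.58. The MC striata had 8.76, 7.63, 8.59 and 8.71, and the SC striata had 7.01, 7.87, 7.94 and 8.31. SL overlapped MNL for this gene, whereas ML lay above every striatum of the intact side and of the control rats. The deposited Nts intensities ran from 505 to 1948 in ML, 490 to 881 in SL, 194 to 608 in MNL, 126 to 328 in SNL, 148 to 492 in MC and 107 to 265 in SC.

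**Figure D2:**
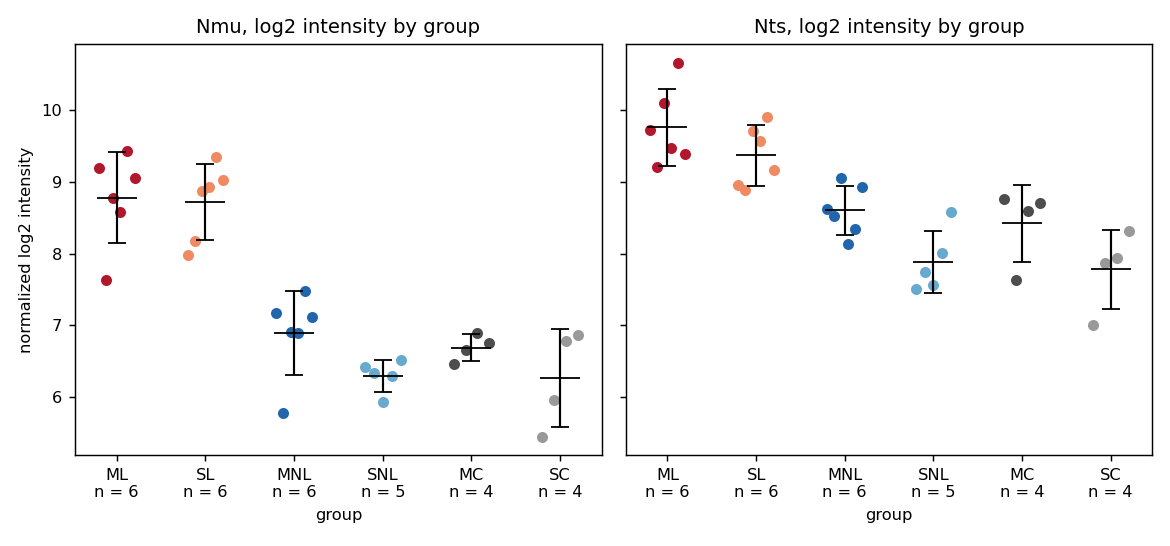
Normalized log2 intensity of Nmu (left) and Nts (right) by group, with 1 point per array and the mean ± SD in black. All ML and SL points of Nmu lie at 7.64 or above, against 7.48 or below in the other 4 groups, while SL and MNL overlap for Nts.

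The mean of Nmu was 8.78 ± 0.63 in ML (SD, n = 6), 8.72 ± 0.53 in SL (n = 6), 6.89 ± 0.58 in MNL (n = 6), 6.69 ± 0.18 in MC (n = 4), 6.30 ± 0.22 in SNL (n = 5) and 6.27 ± 0.68 in SC (n = 4). That of Nts was 9.76 ± 0.54 in ML, 9.36 ± 0.42 in SL, 8.60 ± 0.35 in MNL, 8.42 ± 0.53 in MC, 7.88 ± 0.44 in SNL and 7.78 ± 0.55 in SC. In this order of levels the neighbours ML and SL, MNL and MC, and SNL and SC overlapped for both genes, and so did MC and SNL. SL and MNL overlapped for Nts and were apart for Nmu, a difference that was not tested. Within a group, Nmu varied most in SC (SD 0.68) and ML (SD 0.63) and least in MC (SD 0.18), and Nts varied between SD 0.35 in MNL and 0.55 in SC.

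The first comparison was between the DA-depleted and the intact side of the saline-treated rats, which asks what differed on the side of the lesion. The study also measured less serotonin on that side after saline and after METH. Loss of DA and loss of serotonin cannot be told apart in this design. Nmu was 5.34-fold higher in SL than in SNL (95% interval 3.53 to 8.08), the largest increase among the 9732 probes. Its log2 fold change was 2.42 (SE 0.29, adjusted p = 3.17e-05 from limma). Nts was 2.79-fold higher (95% interval 1.92 to 4.06), with a log2 fold change of 1.48 (SE 0.26, adjusted p = 0.0104), the 4th largest increase. Both members were among the 8 probes called higher, 0.0822% of those tested, and for both every SL striatum lay above every SNL striatum, as held for 0.216% of probes. With 462 ways to divide these 11 striata, an exact permutation test gave p = 0.00216 for each gene, two-sided, the smallest it can give (adjusted p = 0.00866 over 20 tests). Those tests cover only Nmu and Nts, which were chosen with earlier results of these data known. The adjustment therefore does not account for the other probes, and the result adds little to the lack of overlap. The call for Nts was lost without SNL replicate 3 (adjusted p = 0.0624) or SNL replicate 19 (0.0724). Markers of other cells differed in level between these groups, with overlap. The summed intensity of the 4 microglia markers with a named probe, of which Cx3cr1 was detected on 0 arrays, ran from 4084 to 6099 in SL (median 4632), against 3025 to 4363 in SNL (median 3633). Aif1, Trem2 and Ctss had log2 fold changes of 0.51 (SE 0.19), 0.39 (SE 0.15) and 0.37 (SE 0.13), each with an adjusted p of 0.908, and their part in the result was not tested. In ML and MNL the medians of this sum were 4587 and 4277. The sums of 4 oligodendrocyte and 3 astrocyte markers had medians of 6665 and 6485 in SL, against 8448 and 7556 in SNL. In bulk tissue, more cells with a transcript and more of it per cell cannot be told apart.

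In the METH-treated rats the same comparison gave a 3.69-fold higher level of Nmu in ML than in MNL (95% interval 2.49 to 5.47), again the largest increase of all. The log2 fold change was 1.88 (SE 0.28, adjusted p = 0.00173 from limma). Nts was 2.23-fold higher (95% interval 1.56 to 3.18), with a log2 fold change of 1.16 (SE 0.25) and an adjusted p of 0.0563, short of the threshold of 0.05. Of all probes, 0.0514% were called higher and 0.0719% lower, and every ML striatum lay above every MNL striatum for both genes, as for 0.0617% of probes. The exact permutation test gave p = 0.00216 for each gene over 924 divisions (two-sided, adjusted p = 0.00866). As that adjustment covers only Nmu and Nts, it does not stand in for the limma value of Nts over all probes. The sides of 1 rat could not be matched from the labels, so the fit took them as separate striata. An alternative took neighbouring striatum numbers as the sides of 1 rat, which the labels do not state. Nts passed in it, as given in the section on processing. In the fit of separate striata, Nts passed in limma without MNL replicate 17 (adjusted p = 0.0472) or ML replicate 10 (0.0295). Over all single arrays left out, this adjusted p ran from 0.0295 to 0.272. Whether the gap between the sides differed with METH was tested as ML minus SL less MNL minus SNL. On the log2 scale this was −0.54 for Nmu (SE 0.40, 95% interval −1.36 to 0.29) and −0.33 for Nts (SE 0.37, 95% interval −1.07 to 0.42), with an adjusted p of 1 for each, and 0% of probes passed in limma (208 at an unadjusted p under 0.05).

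Against striata of control rats, which had never been lesioned, Nmu was higher on the DA-depleted side after either treatment, and Nts passed after saline. In SL, Nmu was 5.48-fold higher than in SC (log2 fold change 2.45, SE 0.31, adjusted p = 8.79e-05 from limma) and Nts 2.99-fold higher (1.58, SE 0.28, adjusted p = 0.0097). The 16 probes called in this comparison were 0.164% of those tested (0.0925% higher). Without SC replicate 6, the SC striatum with the lowest Nmu and Nts, the adjusted p of Nts was 0.0735. In ML, Nmu was 4.24-fold higher than in MC (2.08, SE 0.31, adjusted p = 0.00209), and Nts was 2.52-fold higher without passing (1.33, SE 0.28, adjusted p = 0.0536). Here 0.0822% of probes were called (0.0411% higher). Without ML replicate 10 the adjusted p of Nts was 0.0332, and over all single arrays left out it ran up to 0.296. Over all striata of ML and MC, the exact permutation test gave p = 0.00476 for Nts (two-sided, the smallest it can give, adjusted p = 0.00952). This too was adjusted over the tests of Nmu and Nts only, not over all probes. Against SNL, the ML side was 5.55-fold higher for Nmu (2.47, SE 0.29, adjusted p = 1.96e-05) and 3.66-fold higher for Nts (1.87, SE 0.26, adjusted p = 0.000352), with 0.0925% of probes called. For both genes the groups did not overlap in these 3 comparisons, with the DA-depleted side higher, as held for 1.16% of probes in SL against SC, 0.688% in ML against MC and 0.298% in ML against SNL. These comparisons share their lesioned or intact striata with the ones above and are not separate evidence.

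Between the intact side and the control rats no difference of either gene passed. SNL was 1.03-fold SC for Nmu (95% interval 0.65 to 1.62) and 1.07-fold SC for Nts (95% interval 0.71 to 1.62). MNL was 1.15-fold MC for Nmu (95% interval 0.74 to 1.79) and 1.13-fold MC for Nts (95% interval 0.76 to 1.69). The adjusted p-values lay between 0.993 and 1, and limma called 0% of probes in either comparison (397 in SNL against SC and 181 in MNL against MC at an unadjusted p under 0.05). The intervals leave room for a change of up to 1.79-fold.

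METH moved neither transcript past the threshold in limma. On the DA-depleted side, Nmu was 1.04-fold higher in ML than in SL (95% interval 0.70 to 1.54) and Nts 1.31-fold (95% interval 0.92 to 1.87), each with an adjusted p of 1, and 0% of probes were called (185 at an unadjusted p under 0.05). On the intact side, Nmu was 1.51-fold higher in MNL than in SNL (95% interval 1.00 to 2.28, adjusted p = 0.839) and Nts 1.64-fold (95% interval 1.13 to 2.39, adjusted p = 0.839), where 0.113% of probes were called. In control rats, Nmu was 1.34-fold higher in MC than in SC (95% interval 0.83 to 2.18, adjusted p = 0.807) and Nts 1.56-fold (95% interval 1.01 to 2.41, adjusted p = 0.772), where 0.0103% were called. All 6 values pointed up, and for Nts the intervals on the intact side and in control rats lay just above 1. Several rested on single arrays. The log2 fold changes in MC against SC were 0.43 for Nmu and 0.64 for Nts, and 0.155 and 0.38 without SC replicate 6. In ML against SL, Nts had 0.39, and 0.21 without ML replicate 30. Nmu, at 0.055 there, was at or below 0 without ML replicate 2, 18 or 30 or SL replicate 4 or 12 (−0.092 to 0). In the exact permutation test Nts on the intact side had p = 0.0195 (two-sided, adjusted p = 0.0354 over 20 tests) and Nmu p = 0.0714 (adjusted p = 0.119). Those 20 tests include the lesion comparisons of both genes, whose small p-values make the adjustment lenient for METH. The value of Nts is therefore not taken as a METH effect here. By quantitative PCR, the study found Nts raised by METH in control rats, with no further rise on the DA-depleted side. There it found Nmu raised further by METH, with no change in control rats or on the intact side. Its array list, with its own thresholds, held Nts as raised in MNL against SNL. Those PCR measurements are not part of the arrays used here. In control rats the exact permutation test gave p = 0.143 for Nts and 0.371 for Nmu, where the smallest possible p was 0.0286. The METH effects in the intact side and in control rats differed by 0.16 for Nmu (SE 0.45) and 0.08 for Nts (SE 0.41) on the log2 scale, those on the DA-depleted side and in control rats by −0.37 (SE 0.44) and −0.25 (SE 0.40), and none of these differences passed (adjusted p between 0.992 and 0.999).

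**Figure D3:**
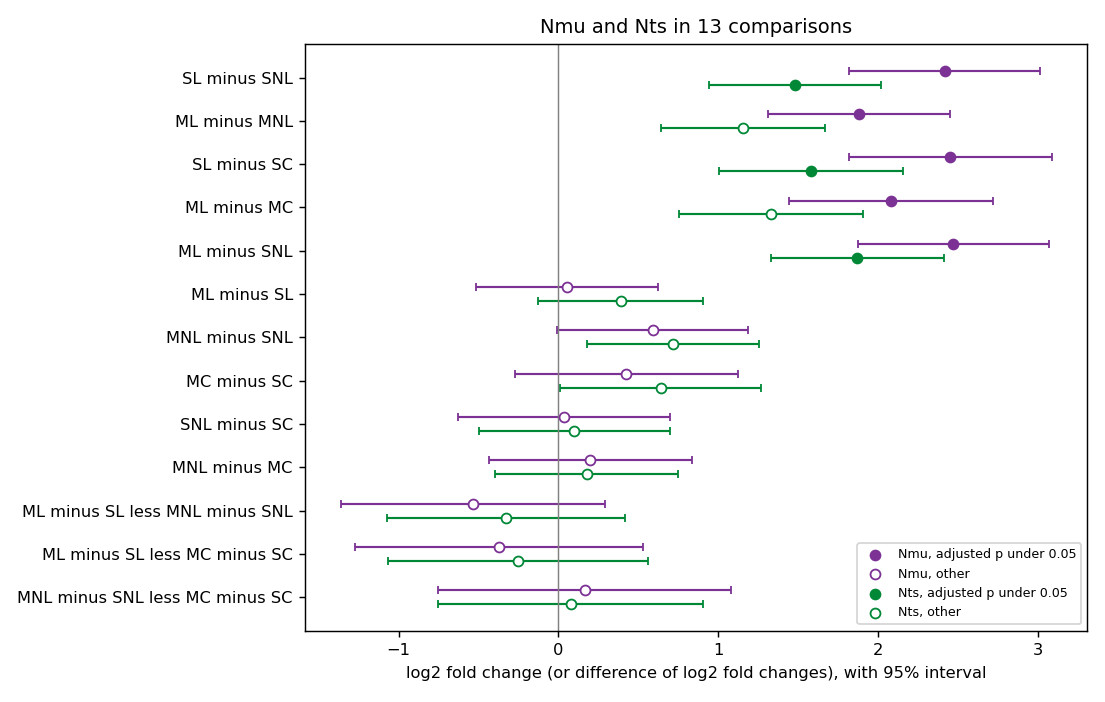
Log2 fold changes of Nmu (purple) and Nts (green) in 10 contrasts between 2 groups and in 3 contrasts of METH effects, with 95% intervals. Filled points have an adjusted p under 0.05 in limma. The 5 comparisons of the DA-depleted side with other striata lie right of 0 for both genes, from 1.16 to 2.47, and every interval of the 3 contrasts of METH effects spans 0.

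In the saline-treated rats the gap between the sides was wider for Nmu than for Nts. Taken within each array, log2 Nmu less log2 Nts differed by 0.94 between SL and SNL (exact permutation test, two-sided, p = 0.00216, adjusted p = 0.0108 over 5 tests) and by 0.73 between ML and MNL (p = 0.0584, adjusted p = 0.146). For METH the same quantity differed by −0.34 between ML and SL, −0.13 between MNL and SNL and −0.22 between MC and SC, with adjusted p-values from 0.278 to 0.714.

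Among arrays of 1 kind, Nmu and Nts varied together on the DA-depleted side. Over its 12 arrays Pearson's r was 0.698 (permutation p = 0.0117, adjusted p = 0.0156 over 4 relations) and Spearman's rho 0.65 (permutation p = 0.0257, adjusted p = 0.0343). With each group mean subtracted, r was 0.741 (permutation p = 0.00626, adjusted p = 0.0143) and rho 0.755. Without the arrays farthest from the median of Nmu, ML replicate 10 and SL replicate 4, r was 0.674 (n = 10, permutation p = 0.0334). Over the 19 arrays of the intact side and the control rats r was 0.594 (permutation p = 0.00717, adjusted p = 0.0143) and rho 0.605 (permutation p = 0.00698, adjusted p = 0.014). There the relation rested in part on the group means: with these subtracted r was 0.379 (permutation p = 0.11, adjusted p = 0.11) and rho 0.416 (permutation p = 0.0771). Without SC replicate 6 and MNL replicate 9, r was 0.571 before and 0.234 after the group means were subtracted. The 2 values of an array share its RNA, its dissection and its normalization.

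**Figure D4:**
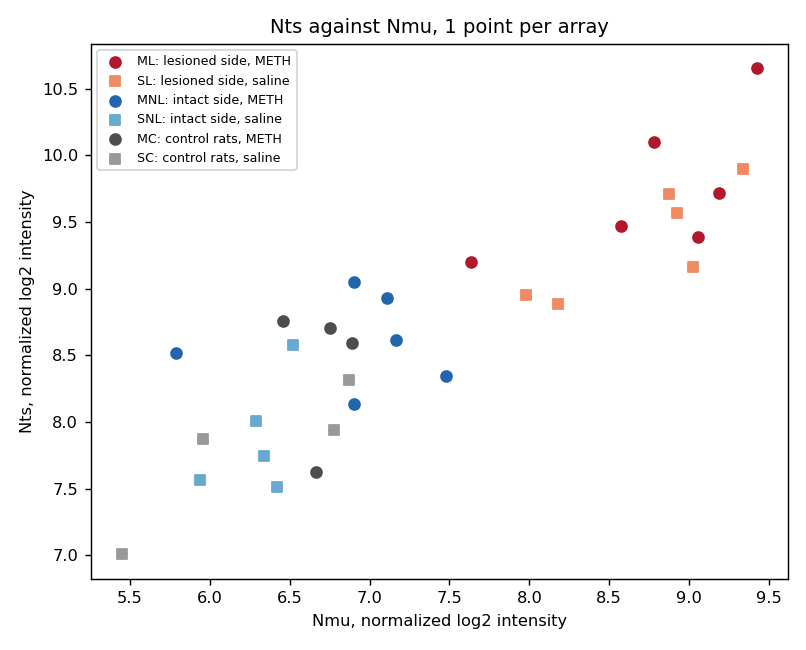
Normalized log2 intensity of Nts (y axis) against Nmu (x axis), with 1 point per array, coloured by group, circles for METH and squares for saline. The 12 arrays of the DA-depleted side form a cluster to the right, at Nmu 7.64 or above, and within it arrays with more Nmu had more Nts (r = 0.698).

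Some arrays with low Nmu for their group also had low levels of striatal markers, and others did not. The lowest Nmu of ML (replicate 10, 7.64), SL (replicate 4, 7.98, and replicate 12, 8.18) and MNL (replicate 9, 5.79) came from arrays whose summed intensity of 7 medium spiny neuron markers was 21195, 23215, 15993 and 18641. The medians of that sum were 27940 in ML, 27740 in SL and 31900 in MNL. The sum ran from 19880 to 32710 in ML, 15990 to 34780 in SL, 18640 to 33720 in MNL, 23470 to 39990 in SNL, 28630 to 32980 in MC and 32390 to 33930 in SC. SNL replicate 19 had the lowest Nmu of its group (5.94) and the highest sum of all 31 arrays (39991). ML replicate 26 had the lowest sum of its group (19879) with Nmu at 8.57, above replicate 10, and SC replicates 6 and 8a, with Nmu at 5.45 and 5.96, had sums of 33932 and 33119. Without the 6 arrays with a choroid plexus sum over 2000, an alternative chosen after seeing the data, Nmu had a log2 fold change of 2.75 in SL against SNL (adjusted p = 1.04e-05 from limma) and 2.01 in ML against MNL (adjusted p = 0.000614). Nts had 1.67 in SL against SNL (adjusted p = 0.00979) and 1.07 in ML against MNL (adjusted p = 0.231). Without SL replicate 12, the array with the highest summed hypothalamic markers, the SL against SNL values were 2.53 for Nmu and 1.58 for Nts. In how far tissue composition sets the spread within a group was not tested.

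The genes whose pattern over the 31 arrays was most like that of Nmu were Krt17 (a keratin, r = 0.933), Tac3 (neurokinin B, r = 0.929), Fst (follistatin, which binds activin, r = 0.927), Upb1 (an enzyme of pyrimidine breakdown, r = 0.921) and, in 5th place, Nts. For Nts they were Nmu, Tac3 (r = 0.851), Penk (proenkephalin, r = 0.832), Fst (r = 0.780) and Upb1 (r = 0.778). These correlations, among 7214 probes with a gene symbol, hold the differences between groups and are a description. With group means subtracted the lists changed. For Nmu they held Krt17 (r = 0.878), Tpm1 (a tropomyosin, r = 0.870), Ankrd37 (r = 0.866), Tbc1d10c (r = 0.864) and Tnni3 (cardiac troponin I, r = 0.856), with Nts in place 346 (r = 0.545). For Nts they held Gal3st4 (r = 0.71), Mrps30 (r = 0.704), Tceal8 (r = 0.686), H2az1 (r = 0.672) and Rnaseh1 (r = 0.672), with Nmu in place 80.

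Of the receptors, Nmur1, Nmur2 and Ntsr1 were detected on 0 of 31 arrays, so their probes give no level here. Sort1 was detected on 19 arrays and had log2 fold changes of −0.11 in SL against SNL (SE 0.12, adjusted p = 0.924) and −0.07 in ML against MNL (SE 0.11, adjusted p = 1). Nms, which encodes the related peptide neuromedin S, had no probe named in the platform annotation, nor did Ntsr2 and Sorl1, and these were not analysed here.

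Of 11 genes of precursor processing, 8 had a probe named in the platform annotation and 7 were tested. Pcsk1, a convertase of neuropeptide precursors, Furin and Cpe have no named probe there and were not analysed here, so the counts below do not cover them. The study itself, with its own thresholds, listed Pcsk1 as raised in SL, MNL and ML, each against SNL. Of the 7, limma called 0 in any comparison, beside 0.0822% of all probes in SL against SNL and 0.123% in ML against MNL. At an unadjusted p under 0.05 there were 1 of the 7 in SL against SNL and 0 in ML against MNL, beside 460 and 215 of the 9732 probes. The 7 included Pcsk2, a prohormone convertase that cuts neurotensin from its precursor, with a log2 fold change of 0.11 in SL against SNL (SE 0.16) and 0.005 in ML against MNL (SE 0.16). Pam, which forms the C-terminal amide that neuromedin U carries, had 0.15 (SE 0.14) and −0.005 (SE 0.14). Qpct, the glutaminyl cyclase that forms the N-terminal pyroglutamate of neurotensin, had −0.12 (SE 0.24) and 0.21 (SE 0.23). The median of the 7 was 0.05 in SL against SNL, beside −0.02 over all probes, and −0.003 in ML against MNL, beside −0.001 over all probes.

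Of the 7 peptidases that cleave neurotensin all were tested, and limma called 0 in any comparison. At an unadjusted p under 0.05 there were also 0 in SL against SNL and in ML against MNL, where 460 and 215 of the 9732 probes were under it. Their median log2 fold change was −0.01 in SL against SNL, with 3 above 0 and 4 below, and −0.11 in ML against MNL, with all 7 below 0, beside −0.001 over all probes. The value of neprilysin (Mme) was −0.25 in both (SE 0.18 and 0.17), that of Thop1 0.05 (SE 0.12) and −0.20 (SE 0.11), and that of Nln −0.01 and −0.03 (SE 0.11 each).

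Of 10 genes of the AP-1 and CREB families, 6 had a named probe and 4 were tested. Of these, limma called 0 where DA-depleted striata were compared. At an unadjusted p under 0.05 there were 1 of the 4 in SL against SNL, 2 in ML against MNL and 2 in ML against SL, beside 460, 215 and 185 of the 9732 probes. Fos, an immediate early gene whose protein joins AP-1, had log2 fold changes of 0.31 in SL against SNL (SE 0.19, adjusted p = 0.908) and −0.57 in ML against MNL (SE 0.18, adjusted p = 0.894). In ML against SL, Fos had 0.56 (SE 0.18, adjusted p = 1). Junb, another AP-1 subunit, had 0.43 in SL against SNL (SE 0.20, adjusted p = 0.908) and −0.71 in ML against MNL (SE 0.19, adjusted p = 0.394). After METH on the intact side both rose, Fos by 1.45 (SE 0.19, adjusted p = 9.35e-05) and Junb by 1.25 (SE 0.20, adjusted p = 0.00132) in MNL against SNL. Jun and Crem, a CREB family gene, had values of 0.11 and 0.34 there and did not pass, in a comparison where 0.113% of probes were called higher. Mean log2 intensities of Fos, detected on 23 arrays, were 5.95 in ML, 5.38 in SL, 6.52 in MNL, 5.07 in SNL, 6.43 in MC and 5.28 in SC. A part of AP-1 proteins in the levels of Nmu and Nts was not tested.

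Of 17 other neuropeptide genes all had a named probe and 16 were tested. Tac3 rose in SL against SNL, with a log2 fold change of 1.39 (SE 0.22, adjusted p = 0.00257), and in ML against MNL (1.14, SE 0.21, adjusted p = 0.0102). Its call in SL against SNL was lost with only these groups in the fit (adjusted p = 0.088). Tac1, the gene of substance P, fell in ML against MNL by 1.38 (SE 0.23, adjusted p = 0.00408), and had −1.01 in SL against SNL without passing (SE 0.24, adjusted p = 0.182). Pdyn, the dynorphin precursor, had −0.73 (adjusted p = 0.36) and −0.80 (adjusted p = 0.0708), and Penk had 0.54 in both (adjusted p = 0.678 and 0.455). Against control rats, Tac3 rose and Tac1 fell on the DA-depleted side of both treatments, and Pdyn fell in SL against SC by 1.00 (SE 0.20, adjusted p = 0.0242). The other 12 tested neuropeptide genes, Sst, Npy and Cck among them, passed in 0 of the 10 comparisons. The medians over the 16 were 0.09 in SL against SNL and 0.07 in ML against MNL, beside −0.02 and −0.001 over all probes.

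**Figure D5:**
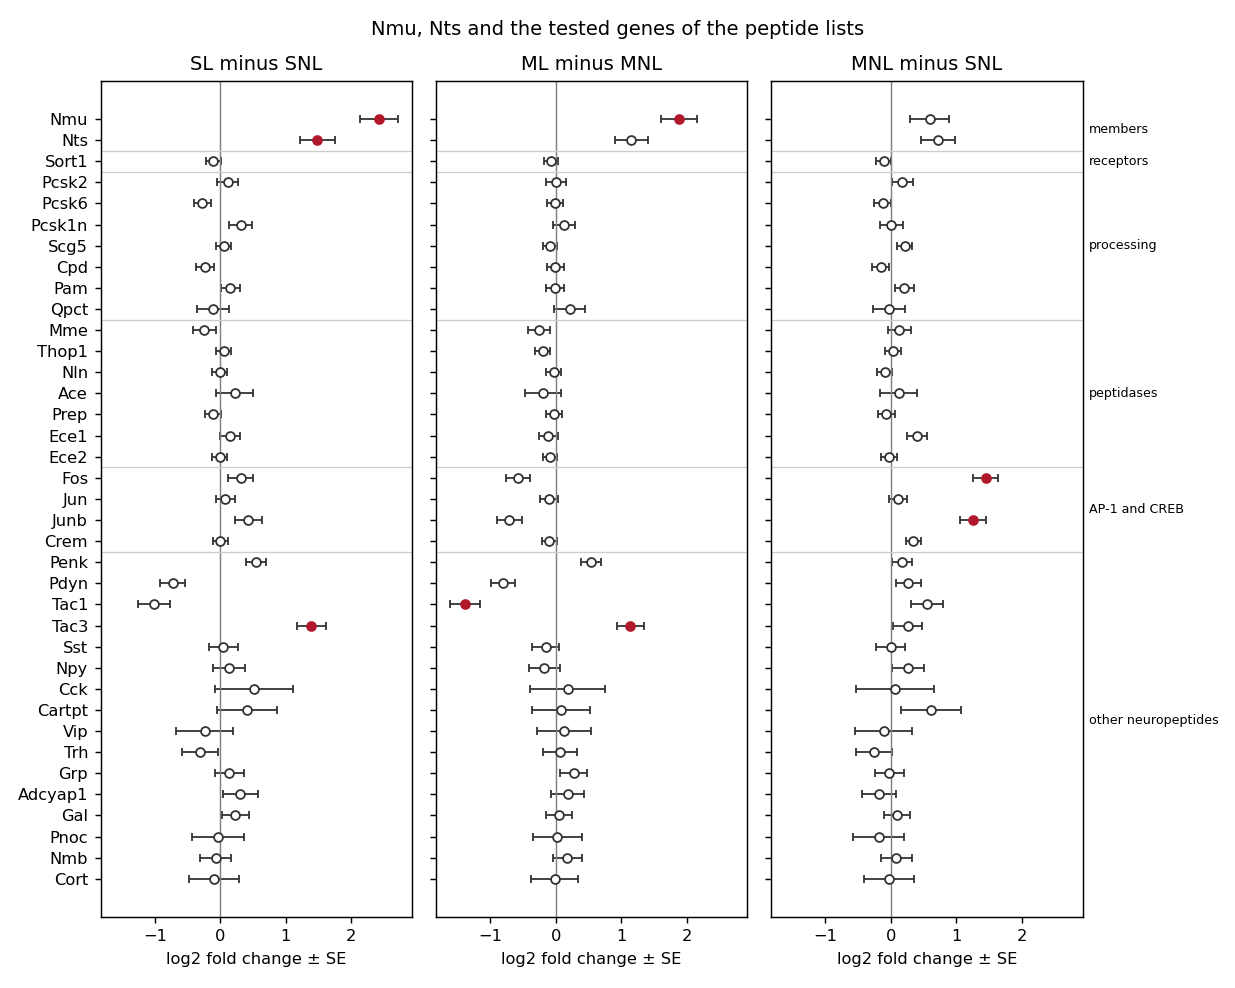
Log2 fold changes (x axis, ± SE) of Nmu, Nts and the tested genes of the receptor, processing, peptidase, AP-1 and CREB, and neuropeptide lists in SL minus SNL, ML minus MNL and MNL minus SNL. Red points have an adjusted p under 0.05 in limma: Nmu, Nts and Tac3 in the first panel, Nmu, Tac3 and (below 0) Tac1 in the second, and Fos and Junb in the third.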

How the data were processed

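Total RNA from each striatum was amplified, and the biotin-labelled cRNA was hybridised to 1 Illumina RatRef-12 array. The authors deposited signal intensities that BeadStudio had extracted, without normalization between arrays, each with a detection p-value that BeadStudio set from negative control beads. A log2 table was deposited too. Over 30 arrays it followed the log2 of the signal less a constant of the probe, within 0.00153 for Nmu and 0.000524 for Nts, and within 0.02 for at least 96.2% of probes in each array. How this constant was chosen is not known, and its column for ML replicate 22 was not used. The global normalization in GeneSpring named in the study's methods was not repeated. Chip and scan batches are not given in the sources used here.

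The signals of 2 arrays were moved by 4 rows (shifts of up to 10 rows tried), and 22519 of 22523 probes were used. Names came from the platform annotation, with 13749 of 13790 named probes matched to GRCr8 by gene ID. Intensities were background corrected with neqc in limma 3.58.1 (R 4.3.3; normexp from the detection p-values, offset 16), quantile normalized and put on the log2 scale. A probe entered the tests where its detection p was below 0.01 on 4 or more arrays. One fit of 6 group means with lmFit and eBayes (25 residual degrees of freedom) yielded 10 contrasts between 2 groups and 3 contrasts of METH effects, with p-values adjusted over all probes by Benjamini-Hochberg and a threshold of 0.05. The script was tested on simulated data. Relations between Nmu and Nts used 100000 permutations (Python 3.11.15, numpy 2.4.6, scipy 1.17.1), and figures were drawn with matplotlib 3.10.9. Alternatives were median scaling, a floor of 16 without normexp, all probes, probes detected on every array, only the groups compared in the fit, the log2 table, leaving out the 2 moved arrays, neighbouring striatum numbers as a block, array weights, the methods' t-test, exact permutation and leaving out each array.

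The members and gene lists were chosen with earlier results of these data known. The rule for named genes took Nmu and Nts, the members of the peptide lists, the 5 genes most like each member over the arrays with and without group means, and Tac3 and Fst. A gene with several probes was read from the brightest.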

Additional observations from a re-analysis of the deposited data

Results flagged for a closer look

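In 12 sets of 4 to 6 arrays (2 genes in 6 groups), 2 arrays stood far from the rest of their group. Chance marks about 1 group in 20.

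Nmu in MNL replicate 9 had a log2 intensity of 5.79, against 6.90 to 7.48 in the other MNL striata, and its gap to the nearest was 0.657 of the range of the group, more than Dixon's 95% limit. Its deposited intensity was 39.6, and its sum of medium spiny neuron markers, 18641, was the lowest of its group. Without it, Nmu had a log2 fold change of 1.66 in ML against MNL (adjusted p = 0.00349 from limma) and 0.81 in MNL against SNL (adjusted p = 0.599). Nts in the same array was 8.52, within the range of the other MNL striata.

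Nts in MC replicate 13 had a log2 intensity of 7.63, against 8.59 to 8.76 in the other MC striata, a gap of 0.851 of the range, also over that limit. Its deposited intensity was 148. Nmu in the same array was 6.67, within the range of its group. Without it, Nts had a log2 fold change of 0.91 in MC against SC (adjusted p = 0.839 from limma).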

How the results depend on the processing

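Nmu stayed higher at an adjusted p under 0.05 in the 5 comparisons of the DA-depleted side with other striata under every alternative but the methods' t-test after Benjamini-Hochberg, where 0 probes passed in any comparison. That test gave adjusted p-values for the same log2 fold changes of 0.0516 for Nmu in SL against SNL (2.42), 0.357 in ML against MNL (1.88), 0.237 in SL against SC (2.45), 0.34 in ML against MC (2.08) and 0.118 in ML against SNL (2.47), and for Nts of 0.469 in SL against SNL (1.48), 0.287 in SL against SC (1.58) and 0.3 in ML against SNL (1.87); both genes met the methods' own fold and unadjusted p in these and in ML against MNL and ML against MC. Nts in SL against SNL (1.48) missed with all probes tested (0.0625), and in SL against SC (1.58) with only those groups in the fit (0.108). Nts in ML against MNL (1.16) passed with probes detected on every array (0.0479), with neighbouring numbers as a replicate block (0.0112) and in exact permutation. Nts in ML against MC passed with median scaling (1.31, 0.048), probes detected on every array (1.33, 0.0354), array weights (1.33, 0.0106) and exact permutation (1.33), as Nts in MNL against SNL did in exact permutation (0.72). All passes in exact permutation rest on an adjustment over the tests of Nmu and Nts only, not over all probes. For Nts in MNL against SNL that adjustment is also shared with the lesion comparisons. With array weights the sign turned for Nmu in ML against SL (−0.004) and for SNL against SC in Nmu (−0.295) and Nts (−0.07), and without the 6 arrays with a high choroid plexus sum for Nmu in ML against SL (−0.14), where Nts had 0.083. Array weights gave 0.035 for Nmu in MC against SC (0.43). The relation of Nmu and Nts outside the lesioned side had r = 0.379 less group means.

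Leaving out single arrays gave ranges of 1.37 to 1.66 (Nts, SL against SNL), 1.32 to 1.76 (Nts, SL against SC), 0.98 to 1.27 (Nts, ML against MNL), 1.07 to 1.45 (Nts, ML against MC), −0.092 to 0.283 (Nmu, ML against SL), 0.211 to 0.502 (Nts, ML against SL), 0.155 to 0.628 (Nmu, MC against SC), 0.382 to 0.905 (Nts, MC against SC), −0.235 to 0.238 (Nmu, SNL against SC), −0.159 to 0.277 (Nts, SNL against SC) and −0.088 to 0.29 (Nts, MNL against MC). Differences between METH effects ran from −0.037 to 0.435 (Nmu) and −0.188 to 0.336 (Nts) for MNL minus SNL less MC minus SC, and −0.514 to 0.009 (Nts) for ML minus SL less MC minus SC.

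Counts of probes called moved by more than 1.5 times. For SL against SNL (8) they ran from 0 to 13 over alternatives and from 3 (without SNL replicate 19) to 8 without single arrays. For ML against MNL (12) and MNL against SNL (11) they ran from 0 to 31 and 0 to 12 over alternatives. For SL against SC (16) they ran from 0 to 67, and were 5 without SC replicate 6, 6 without SC replicate 8a, 48 without SL replicate 4, 159 without SC replicate 15 and 192 without SC replicate 16. For ML against MC (8) they ran from 0 to 19, with 2 without MC replicate 5 or 7, and for ML against SNL (9) from 0 to 12. For MC against SC (1) they ran from 0 to 5, with 4 without MC replicate 13. The methods' t-test gave 0 in each of these. With the replicate block 8 probes were called for ML minus SL less MNL minus SNL, neither member among them. The cause was not tested.

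No group shares a striatum number with another. Of 11 neighbouring numbers from the 2 sides of 1 treatment, correlations of the deviations ran from −0.066 to 0.71, 10 over 0.1. For 10 of the 11 intact striata the neighbour correlated best, a hint from the data and not the design. As the sides did not overlap, any pairing puts the lesioned side higher (here Nmu by 1.09 to 2.94, Nts 0.34 to 2.15). The replicate block, run for the sides of the lesioned rats, lost no call of either gene and called 13 probes in SL against SNL and 31 in ML against MNL. Signal over background gave no level of the receptors Nmur1, Nmur2 and Ntsr1, whose probes were detected on 0 arrays.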
